A study of Mus musculus with 2 samples.

Results

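The genes described here are 10 regulators and effectors of cardiac fatty acid and energy metabolism, *Ppara*, *Ppargc1a*, *Ppargc1b*, *Esrra*, *Esrrb*, *Esrrg*, *Fabp3*, *Ckm*, *Mb* and *Cpt1b*, out of 21938 protein-coding genes of GENCODE M21 on GRCm38/mm10. They were chosen by name for their roles in the maturing heart, with earlier results of these data known. Wildtype (WT) hearts of FVB mouse embryos at E11.5 were profiled for open chromatin by ATAC-seq, in which a transposase inserts adapters into accessible DNA. Both replicates belong to 1 group and each is made from 2 whole hearts, so there is no comparison between conditions, and signal from cardiomyocytes, endocardium, epicardium and blood is mixed. At every annotated transcript start (within 1 kb) and in the gene body with 50 kb on each side, the question was which of these loci already carried open chromatin at this stage.

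The embryonic heart runs largely on glucose and lactate, and the heart turns to fatty acids as its main fuel around and after birth. PPARα, the product of *Ppara*, and the oestrogen-related receptors, encoded by *Esrra*, *Esrrb* and *Esrrg*, are nuclear receptors that bind DNA at genes of fatty acid oxidation and mitochondrial energy production, and the coactivators encoded by *Ppargc1a* and *Ppargc1b* work through them. Among their targets are *Fabp3*, the fatty acid binding protein of heart, and *Cpt1b*, the muscle form of the enzyme that commits fatty acids to import into mitochondria, while *Ckm* encodes muscle creatine kinase, which buffers ATP, and *Mb* encodes myoglobin, which binds oxygen.

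A region was counted as open where a peak of replicate 1 overlapped a peak of replicate 2, and its strength was taken as the fold enrichment at the summit in each replicate, a ratio of the read pileup over a genome-wide background. The lists held 118027 and 114783 peaks, which gave 98924 shared regions, and a peak that spans several shared regions lends its value to each of them. At the markers of the cell types, 10 of 10 myocardial marker genes, 6 of 6 of endocardium and endothelium and 5 of 5 of epicardium had a shared region at a start, as did 4 of 5 of blood, 4 of 5 of neural tissue, 2 of 4 of skeletal muscle and 1 of 5 of liver. Over all protein-coding genes this share was 67.6%. All 5 neural markers have a CpG-rich start, a class in which 95.6% of genes were open. Of the markers without one, a class in which 38.1% of genes were open, 5 of 5 of myocardium, 4 of 4 of endocardium and endothelium, 2 of 2 of epicardium and 4 of 5 of blood were open, against 2 of 4 of skeletal muscle and 1 of 5 of liver. The highest start regions of the myocardial markers had mean fold enrichments of 5.10 to 23.6, with summits within 1 kb of a start of the gene. Among the blood markers, *Hbb-bt* had a mean of 17.8, while the summits at *Klf1* and *Hba-a1* in replicate 1 lay 1457 and 1549 bp from the nearest start, and that at *Myf6*, 1 of the 2 open skeletal muscle markers, 1224 bp. The part of these other cell types in the values below was not tested. Between means of both replicates, ratios up to 1.16 (at fold enrichments over 20), 1.33 (from 10 to 20) or 1.43 (from 5 to 10) were within the spread between replicates. These limits bound 95% of differences, taken from the SD of the replicate ratios of 85436 regions matched peak to peak.

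A shared region lay at an annotated start in 9 of the 10 genes, in all but *Mb*. The background is high, at 67.6% of all protein-coding genes (14820 of 21938). The 10 genes have 42 distinct annotated starts, of which 32 had a shared region, against a background of 58.0% of starts. Grouped by position, the starts form 21 groups, and 14 of these were open. CpG content goes with this background. Of all starts rich in CpG (observed over expected CpG of at least 0.6 and GC of at least 50% in 1000 bp), 96.1% were open, against 35.2% of the CpG-poor ones. Among the starts of the 10 genes, 19 of 20 CpG-rich and 13 of 22 CpG-poor starts were open. Of the 4 genes with no CpG-rich start (*Ppargc1a*, *Ckm*, *Mb*, *Cpt1b*), 3 had a start region, while 38.1% of all genes without a CpG-rich start did. With so few genes, this share is a description only.

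**Figure D1:**
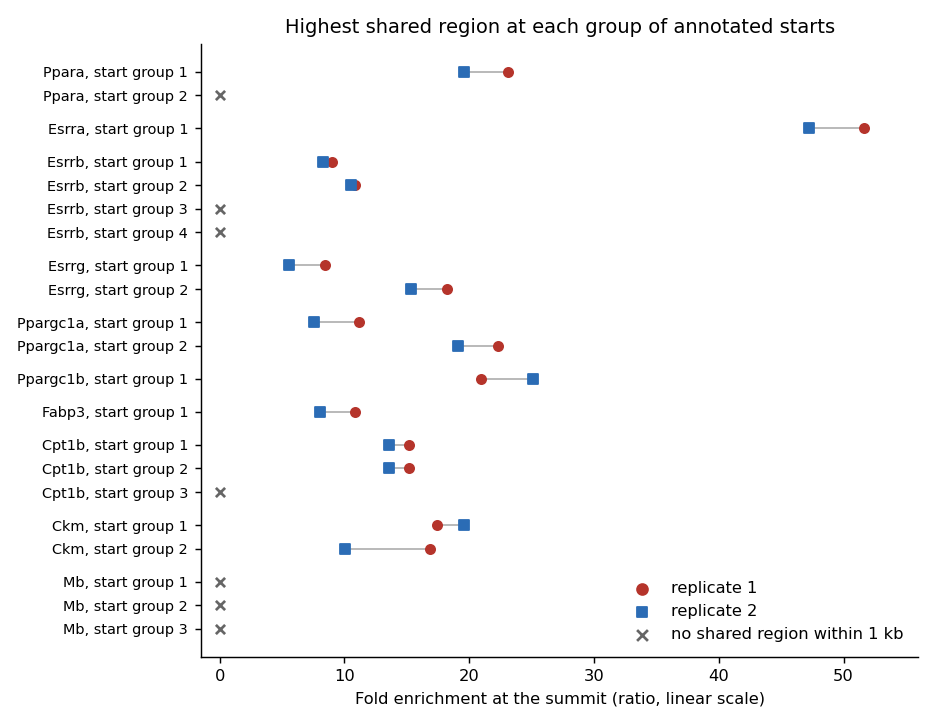
Fold enrichment at the summit (x axis, linear ratio) of the highest shared region within 1 kb of each group of annotated starts (y axis, numbered from the outermost start), in replicate 1 (circles) and replicate 2 (squares). *Esrra* stands alone at 51.6 and 47.3, the other open starts lie between 5.53 and 25.1, and crosses mark the 7 of 21 start groups without a shared region, 3 of them at *Mb*.

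Of the nuclear receptors, *Esrra* had by far the highest start region, at 51.6-fold enrichment in replicate 1 and 47.3-fold in replicate 2. The region (2379 bp, chr19:6920519-6922897) took in all 5 annotated starts, and the summits lay 185 and 192 bp upstream of the outermost one. Its mean of 49.4 was above that of 97.5% of the 14820 genes with a start region, and 2.15 times that of the next gene of the group, a gap beyond the spread between replicates. *Ppara* reached 23.1 and 19.6 at a region of 1281 bp (chr15:85734794-85736074), which lies at its 5 CpG-rich starts. A further start of a processed *Ppara* transcript, inside the gene and CpG poor, was 36140 bp from the nearest shared region. No shared region lay in the body of *Ppara* away from its starts.

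The sequences at the summits of these 2 start regions are shown because both are of the CpG-rich kind, in contrast to those of the muscle genes further on. Each is 200 bases of GRCm38 around the summit of replicate 1, on the strand of the gene, and in every sequence printed here capitals mark matches on either strand to the ERR element, the GATA, TEAD, T-box, MEF2 and CArG motifs and the muscle E-box. Their letters are given with the motif counts further on, except for MEF2 and CArG, which allow several bases and are given by name.
*Esrra* start region, chr19:6921898-6922097, minus strand: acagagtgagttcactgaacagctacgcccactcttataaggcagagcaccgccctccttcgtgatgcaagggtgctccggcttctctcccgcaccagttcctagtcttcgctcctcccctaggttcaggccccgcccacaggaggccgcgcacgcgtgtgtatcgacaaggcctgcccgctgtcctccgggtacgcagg
*Ppara* start region, chr15:85735343-85735542, plus strand: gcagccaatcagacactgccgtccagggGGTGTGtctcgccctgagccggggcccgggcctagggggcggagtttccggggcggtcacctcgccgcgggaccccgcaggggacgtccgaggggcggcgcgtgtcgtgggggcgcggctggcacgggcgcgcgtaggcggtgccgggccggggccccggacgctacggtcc
The *Esrra* sequence has 15 CG dinucleotides and 63% GC, and the *Ppara* sequence has 29 and 79%. The *Ppara* sequence holds 1 T-box match, and the *Esrra* sequence holds none of the motifs in capitals.

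*Esrrb* and *Esrrg*, the other oestrogen-related receptors, were open at lower levels and at several starts each. At *Esrrb*, the outermost start had 8.96 and 8.30, and the second group of starts, 60.5 kb into the gene, had 10.9 and 10.6, so the values of the replicates lay close together at both. The innermost groups of starts had no shared region nearer than 5967 and 5278 bp. At *Esrrg*, which spans 606 kb, the higher region was at the internal group of starts (chr1:187997531-187998295), with 18.2 and 15.3. The outermost starts, 389 kb away, had 8.42 and 5.53 at the main region and 3.53 and 3.02 at a small region just upstream. The internal starts were thus about 2.4 times higher in mean than the outermost ones, beyond the spread between replicates.

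Both coactivator genes were open at a level close to that of *Ppara*. *Ppargc1a* had 22.3 and 19.1 at its main starts (chr5:51551802-51554239), with summits within 75 bp of the outermost of them, although none of its 5 starts is CpG rich. Its alternative starts further upstream had 11.1 and 7.54. *Ppargc1b* had 20.9 and 25.1 at a region of 2563 bp on chromosome 18 that holds both its starts. A separate shared region of 663 bp just downstream, over the intronic microRNA gene *Mir378a*, had 7.88 and 25.1, the value of replicate 2 coming from the peak that also spans the starts. The means of *Ppargc1b*, *Ppara* and *Ppargc1a* (23.0, 21.4 and 20.7) differed by ratios of 1.08 and 1.03, within the spread between replicates, and replicate 2 was the higher only at *Ppargc1b*.

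At *Cpt1b*, the highest start region had 15.2 and 13.6 (chr15:89425120-89426221), with summits 95 and 126 bp upstream of the outermost start. The start of the choline kinase gene *Chkb* also lies within 1 kb of this region. The main region of *Chkb*, 3.66 kb upstream of *Cpt1b*, was higher at 35.0 and 36.2. The 2 groups of *Cpt1b* starts that were open share the 1 region, and the innermost start, of a transcript subject to nonsense-mediated decay, had no shared region within 3719 bp.

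*Fabp3* has a single annotated start, which is CpG rich, and the lowest start region of the 9 genes, 10.9 and 8.05. The region is broad (1413 bp, chr4:130307764-130309176), and its summits lie 673 bp apart, downstream of the start in replicate 1 (151 bp) and upstream of it in replicate 2. A start of the gene model *Gm10570* also lies within 1 kb of it. An upstream region 11.3 kb from the start had 10.9 and 13.8 (chr4:130297084-130297627), the value in replicate 1 being equal to that at the start. Its mean was 12.4, against 9.46 at the start, a ratio within the spread between replicates. Its summit sequence is shown as the strongest region of *Fabp3* away from any start.
*Fabp3*, 11.3 kb upstream, chr4:130297176-130297375, plus strand: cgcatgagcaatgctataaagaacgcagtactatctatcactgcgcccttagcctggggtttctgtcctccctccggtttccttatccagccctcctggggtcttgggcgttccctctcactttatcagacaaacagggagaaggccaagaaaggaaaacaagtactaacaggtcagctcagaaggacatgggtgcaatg
It holds none of the motifs in capitals, and has 5 CG dinucleotides.

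The 4 start regions assigned to *Ckm* by position differ in kind. The highest, with 17.4 and 19.6, lies at the start of a processed transcript 6.25 kb upstream of the coding starts, and is also within 1 kb of a start of the kinesin light chain gene *Klc3*. A second region, 833 bp downstream of that start by the summit of replicate 1, had 7.61 and 8.55. At the coding starts, 2 regions were found. The one that covers them was small (202 bp) and weak, with 4.89 and 3.77 and a summit 48 bp upstream of the first coding start in replicate 1. The other, with 16.8 and 10.1, had its summit 1143 bp upstream of that start in replicate 1, and reached its 1 kb window only with its edge (chr7:19409618-19410251). It was higher than the region at the start in both replicates. An enhancer active in skeletal and cardiac muscle with MEF2 and E-box sites is known upstream of *Ckm*. The sequences of both places are shown because the region before the start was the higher one.
*Ckm*, summit of the upstream region, chr7:19409782-19409981, plus strand: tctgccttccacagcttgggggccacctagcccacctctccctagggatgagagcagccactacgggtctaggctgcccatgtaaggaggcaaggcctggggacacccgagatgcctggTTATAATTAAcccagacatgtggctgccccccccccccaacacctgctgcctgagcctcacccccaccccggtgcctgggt
*Ckm*, bases before the first coding start, chr7:19410825-19411024, plus strand: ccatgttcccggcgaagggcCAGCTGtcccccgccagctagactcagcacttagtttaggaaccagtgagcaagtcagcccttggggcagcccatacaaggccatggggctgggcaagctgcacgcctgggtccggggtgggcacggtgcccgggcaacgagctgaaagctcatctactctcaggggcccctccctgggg
The upstream sequence holds 1 MEF2 match, which reads on both strands, and the sequence before the start holds 1 E-box match. They have 3 and 8 CG dinucleotides. In the wider window of the motif counts further on, the upstream region held a muscle E-box match as well as the MEF2 match. The E-box was searched as CAGCTG only, so other E-box letters are not marked in either sequence.

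*Mb* was the 1 gene of the 10 with no shared region at any of its 6 starts, none of which is CpG rich. The nearest shared regions were 1935 to 5526 bp from its starts, and the nearest peak of either replicate alone was 1921 bp away. The gene was not closed throughout. In its introns, 12.2 and 12.1 were measured at a region of 1585 bp (chr15:77036737-77038321), and 6.79 and 7.04 at a smaller one. Downstream of the innermost starts, 1 peak of replicate 1 with 13.6 spanned 2 shared regions (chr15:77018831-77019344 and chr15:77019457-77020028), which had 8.55 and 9.05 in replicate 2. The highest region of the window, with 18.7 and 13.1, was at the start of the gene model *Gm49540*, near the 3′ end of *Mb*. The sequence before the first start of the innermost group, which is not open, is shown beside 2 intronic summits that are.
*Mb*, bases before the start, not open, chr15:77022788-77022987, minus strand: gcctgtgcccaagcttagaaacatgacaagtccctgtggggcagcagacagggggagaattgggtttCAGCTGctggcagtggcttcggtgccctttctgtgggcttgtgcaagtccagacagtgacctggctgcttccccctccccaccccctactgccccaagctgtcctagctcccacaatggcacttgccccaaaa
*Mb*, intron downstream of these starts, chr15:77019607-77019806, minus strand: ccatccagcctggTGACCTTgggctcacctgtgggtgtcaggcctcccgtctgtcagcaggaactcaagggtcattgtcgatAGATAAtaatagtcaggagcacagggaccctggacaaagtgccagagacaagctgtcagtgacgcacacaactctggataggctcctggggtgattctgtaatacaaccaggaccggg
*Mb*, intron between the outermost and the other starts, chr15:77037568-77037767, minus strand: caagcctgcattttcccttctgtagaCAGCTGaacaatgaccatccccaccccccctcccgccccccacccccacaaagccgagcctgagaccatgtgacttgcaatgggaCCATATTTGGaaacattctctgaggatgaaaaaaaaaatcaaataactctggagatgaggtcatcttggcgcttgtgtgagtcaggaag
The closed sequence has 1 CG dinucleotide and 1 E-box match. The first intronic sequence holds an ERR element and a GATA match, and the second an E-box and a CArG match. These matches are descriptions of the letters and not of bound sites.

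**Figure D2:**
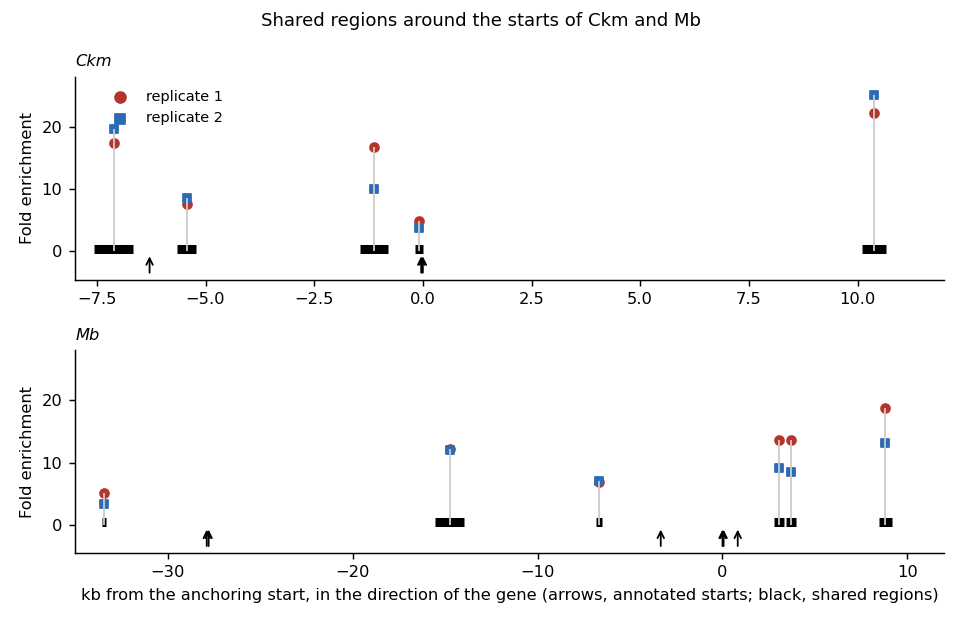
Shared regions (black bars on the axis) around the starts of *Ckm* and *Mb*, with the fold enrichment of replicate 1 (circles) and replicate 2 (squares) at the middle of each region. The x axis gives kb from the second coding start of *Ckm* and from the first start of the innermost group of *Mb*, in the direction of the gene, and arrows mark annotated starts. The *Ckm* region at 0 kb is low (4.89 and 3.77) beside the one upstream of it (16.8 and 10.1), and no black bar lies within 1 kb of an arrow of *Mb*.

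In order of the highest start region, the 9 open genes ran *Esrra*, *Ppargc1b*, *Ppara*, *Ppargc1a*, *Ckm*, *Esrrg*, *Cpt1b*, *Esrrb* and *Fabp3*, with means from 49.4 down to 9.46. Of the 8 steps between neighbours, 6 were within the spread between replicates. The exceptions were the step below *Esrra* and the step from *Cpt1b* to *Esrrb*, whose ratio of 1.34 was just past the limit of 1.33. The place of *Ckm* rests on the region shared with *Klc3*, and by the highest region at its coding starts (a mean of 13.45) it would come below *Cpt1b*. All genes with a start region had a median of 24.5 (quartiles 14.2 and 33.5), and 8 of the 9 genes lay below it, from 14.6% of genes below at *Fabp3* to 45.7% at *Ppargc1b*.

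**Figure D3:**
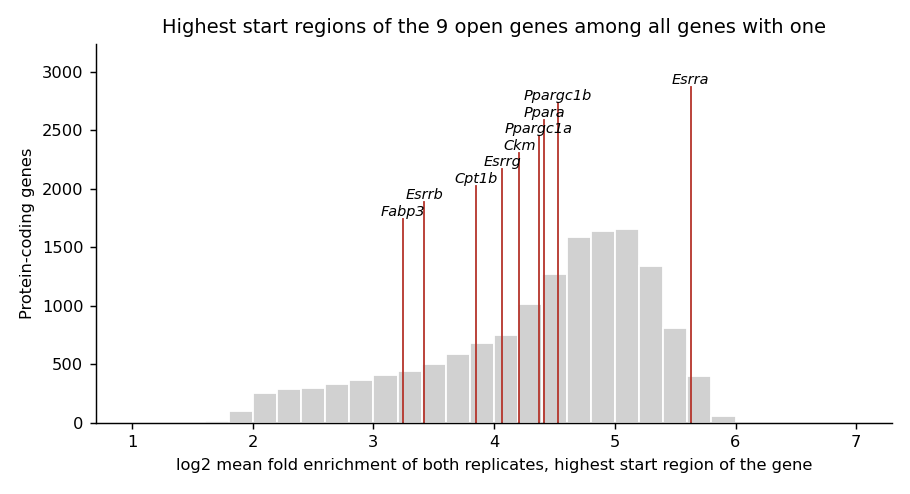
Number of protein-coding genes (y axis) by the log2 mean fold enrichment of their highest start region (x axis) for the 14820 genes with one. Red lines mark the 9 open genes described here, of which 8 lie below the median of 24.5 (before the log) and *Esrra* lies in the upper tail.

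Beyond the starts, the windows of the 10 genes held 148 shared regions. By position, 58 were in introns, 34 at starts of other genes, 22 upstream, 18 downstream and 16 at starts of the genes themselves. Distal regions, those over 1 kb from any annotated start of any gene, were 98 of the 148 (66.2%, where all shared regions have 74215 of 98924). Their median mean fold enrichment was 5.79, against 5.68 of all distal regions. Of the 98, 17 had a mean of at least 10 (17.3%, against 15.7% of all distal regions).

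The coactivator genes had the densest distal landscapes, with 46 of the 98 distal regions between them. *Ppargc1a* had 24 distal regions, or 11.2 per 100 kb of window, more than 97.1% of protein-coding genes, and *Ppargc1b* had 22, or 10.9 per 100 kb, more than 96.7%. The median over all genes was 2.74 per 100 kb. These counts depend on the peak limits. With a reciprocal overlap of 50%, all regions in the *Ppargc1b* window fell from 24 to 15, and with a q-value limit of 1e-10 to 9, where those of *Ppargc1a* fell from 27 to 13, of *Esrrg* from 29 to 10, of *Fabp3* from 12 to 4, of *Ckm* from 17 to 11, of *Esrrb* from 8 to 4 and of *Ppara* from 7 to 4. Those of *Mb* fell from 8 to 5 with the reciprocal overlap. The strongest distal region of *Ppargc1a*, with 23.9 and 18.4, lay 114 kb downstream of the main starts and past the end of the gene (chr5:51439471-51440445), and was as high as the start region, with means of 21.1 and 20.7. Upstream of the gene, regions with 16.0 and 14.1 and with 12.8 and 10.1 lay 23.9 and 31.9 kb before the outermost start. In *Ppargc1b*, the strongest distal region was intronic, 39.7 kb into the gene, with 22.8 and 19.6, followed by one upstream of the gene with 17.7 and 14.1.

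The windows of *Esrrg*, *Esrrb* and *Ppara* were sparser than those of the coactivators. *Esrrg* had 29 regions in 706 kb, of which 22 were distal (3.12 per 100 kb, more than 55.5% of genes and near the median). The strongest of these were intronic, 228 kb and 510 kb from the outermost start, with 17.9 and 14.8 and with 19.01 and 12.8, close to the internal start region. *Esrrb* had 8 regions, 6 of them distal (2.30 per 100 kb, more than 44.9% of genes), the highest of the distal ones, with 13.6 and 8.80, lying deep in the gene (chr12:86498695-86499131). It was the higher in replicate 1 and the lower in replicate 2 beside the second group of starts. *Ppara* had 7 regions, of which 3 were distal (1.79 per 100 kb, more than 37.2% of genes), all upstream, with means of 4.17 to 6.50.

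The compact genes lie among other genes, and starts of neighbours made up much of their windows. All 7 other regions around *Esrra* were at starts of other genes, as were 6 of 8 around *Cpt1b* and 7 of 17 around *Ckm*. *Ckm* had 14.4 regions per 100 kb, more than 93.5% of genes, but 6 of the 17 were distal. *Fabp3* had 12 regions, 8 of them distal (7.49 per 100 kb, more than 88.5% of genes), and *Mb* had 8, 6 of them distal. With 10 kb on each side in place of 50 kb, the regions of *Ckm* fell from 17 to 6, of *Fabp3* from 12 to 4, of *Esrra* from 8 to 3 and of *Cpt1b* from 8 to 3, and with 100 kb those of *Ckm* rose to 37, of *Esrra* to 20 and of *Cpt1b* to 14. The *Ppara* window went from 7 to 3 and 14. In 5 of the 10 windows the highest region belonged to the start of another gene, near the 48.6% of all protein-coding genes with a region in the window.

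**Figure D4:**
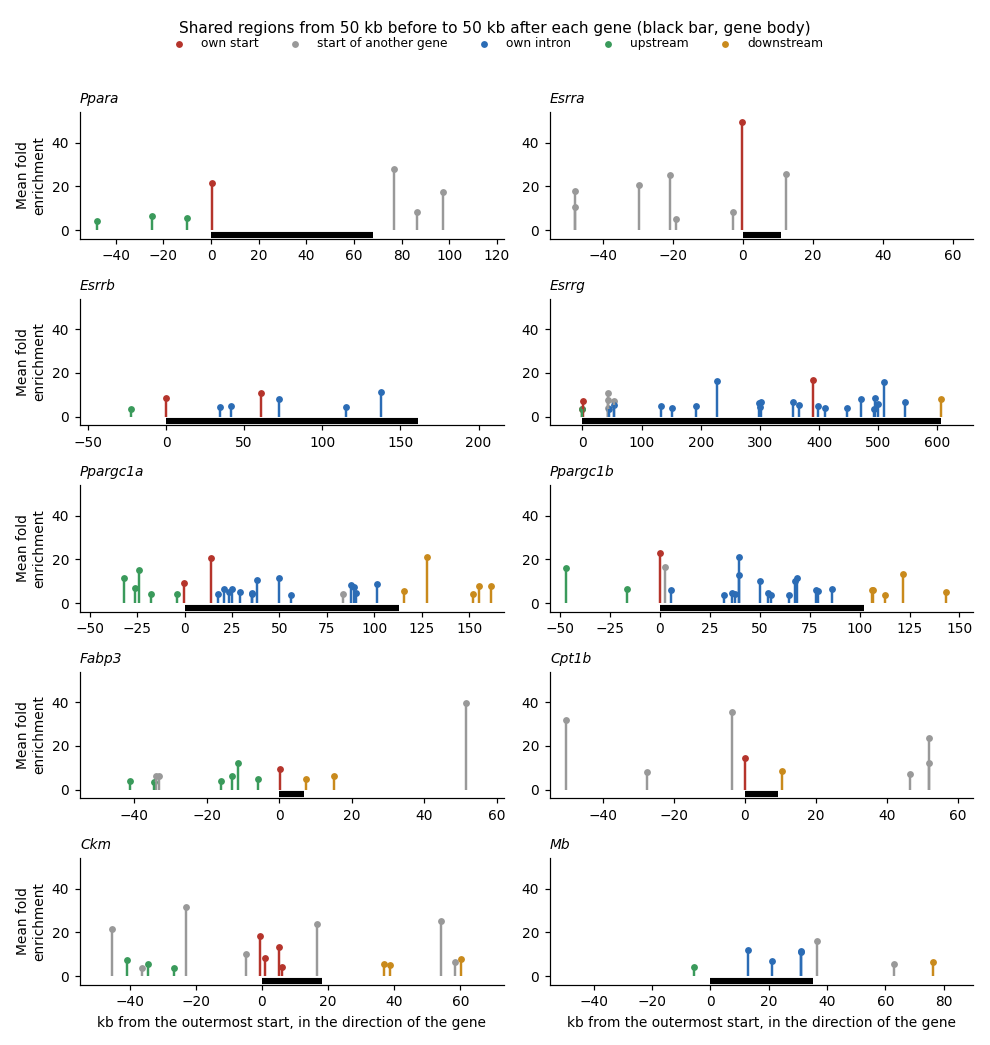
Mean fold enrichment of both replicates (y axis) of each shared region in the window of each gene, by kb from the outermost start in the direction of the gene (x axis, scaled to each gene). Colours give the position of a region and the black bar is the gene body. *Ppargc1a* and *Ppargc1b* carry 24 and 22 distal regions, while *Esrra* and *Cpt1b* carry 0 and 1.

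Motifs were searched in the 300 bases around each summit of replicate 1, on both strands, counting each summit once. The ERR element AAGGTCA, bound by the oestrogen-related receptors as monomers, was in 12 of 95 distal summits of these genes (12.6%), against 7.23% of all distal summits, and in 0 of the 16 start regions (3.64% of all regions that are not distal). Of the 12, 5 were at *Ppargc1b*, 2 at *Fabp3*, and 1 each at *Ppara*, *Ppargc1a*, *Esrrb*, *Esrrg* and *Mb*. AGGTCA, the nuclear receptor core that the ERR element contains, was in 24 of the 95 (25.3%, against 21.02% of all distal summits). The MEF2 motif was in 8 of the 95 (8.42%, against 5.98%), 6 of them at *Ppargc1a*, a gene known as a target of MEF2 factors in muscle. Of the 16 start regions, 2 held a MEF2 match, the upstream region of *Ckm* and that of *Cpt1b*, against 2.37% of all regions that are not distal.

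Of the motifs of cardiac factors, AGATAA, bound by GATA factors, was in 22.1% of the distal summits of these genes, against 26.4% of all distal summits. The letters GGTGTG, a core of T-box sites, were in 23.2%, against 19.4%. For CATTCC, the site of TEAD factors, the shares were 23.2% and 22.7%. The muscle E-box CAGCTG, which reads the same on both strands, was in 19 of the 95, against 25.3% of all distal summits. For the NKX2 motif CACTTGA the shares were 2.11% and 5.62%, and for the CArG motif, bound by SRF, 4.21% and 1.86%. The promoter motifs were GGGCGG of SP/KLF factors (14.7%, against 9.38%), CCAAT of NF-Y (21.1%, against 29.3%) and CCGGAAG of ETS factors (3.16%, against 1.94%). Neither GCGCATGCG, the site of NRF1, nor the DR1 motif had a match in these distal summits or in the start regions, and both are rare in all distal summits (0.128% and 0.0374%). With 95 summits of 9 genes, these shares were not tested and support no difference.

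The muscle form and a related, more widely used form of 12 enzymes and carriers were then set side by side, 4 of these genes being *Cpt1b*, *Ckm*, *Fabp3* and *Mb*. A start region was present at 11 of 12 muscle genes and 12 of 12 relatives, against 67.6% of all genes. By CpG content, 11 of the muscle genes belong to the class of genes open in 38.1% of cases (no CpG-rich start) and 10 of the relatives to the class open in 95.6%. In the 11 pairs with a region on both sides, the relative was higher in both replicates in 9 and the muscle gene in 2. *Cpt1b* had 15.2 and 13.6, and *Cpt1a*, the form of liver and most other tissues, had 30.4 and 32.7, 2.19 times higher in mean. *Fabp3* had 10.9 and 8.05, and *Fabp5* had 35.0 and 32.4, 3.57 times higher. *Mb* had no start region, while *Cygb*, a related globin, had a weak one with 6.25 and 3.52. The *Cygb* region also lies within 1 kb of a start of *Prcd*. Its summits were 487 bp apart, with that of replicate 1 outside the region.

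*Ckm* went the other way. Its highest start region, at 17.4 and 19.6, was above that of *Ckb*, the brain creatine kinase, at 12.2 and 9.30, a ratio of means of 1.72. The region upstream of its coding starts, at 16.8 and 10.1, differed from *Ckb* by a ratio of 1.25, within the spread between replicates. The small region that covers the coding starts, at 4.89 and 3.77, was below *Ckb* in both replicates. Of the mitochondrial creatine kinases, *Ckmt2*, the sarcomeric form, was higher in both replicates, with 9.78 and 9.05 against 5.43 and 5.28 at *Ckmt1*. In 8 of the 9 pairs with the relative higher, only the relative has a CpG-rich start. The other pairs measured on both sides differ from this. *Fabp3* has a CpG-rich start and the higher *Fabp5* has none, *Ckb* has 5 and the higher *Ckm* has none, and neither *Ckmt2* nor *Ckmt1* has one. Its part in the order was not tested.

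The remaining 7 pairs are of glucose transporters, glycolytic enzymes, respiratory chain subunits and acetyl-CoA carboxylases, and in all 7 the relative was higher in both replicates. *Cox8b*, a muscle subunit of cytochrome c oxidase, had 6.52 and 5.53, against 44.3 and 39.7 at *Cox8a*, the largest gap at 6.97 times. *Cox6a2* had 7.06 and 5.78, against 16.8 and 18.9 at *Cox6a1*, and *Cox7a1* had 18.2 and 15.6, against 34.8 and 30.7 at *Cox7a2*. *Slc2a4*, the insulin-responsive glucose transporter, had 21.2 and 19.9, against 33.4 and 37.5 at *Slc2a1*. *Eno3* had 18.2 and 18.9, against 44.0 and 39.2 at *Eno1*, but the summit of this region in replicate 1 lay at -2646 bp from the nearest *Eno3* start and the region also takes in the start of *Pfn1*. With summits of both replicates required inside the 1 kb window, 10 of the 12 muscle genes were open. *Pgam2* had 16.6 and 11.8, against 22.8 and 24.4 at *Pgam1*. *Acacb*, which makes the malonyl-CoA that restrains CPT1, had 25.3 and 25.4, against 40.5 and 40.2 at *Acaca*.

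**Figure D5:**
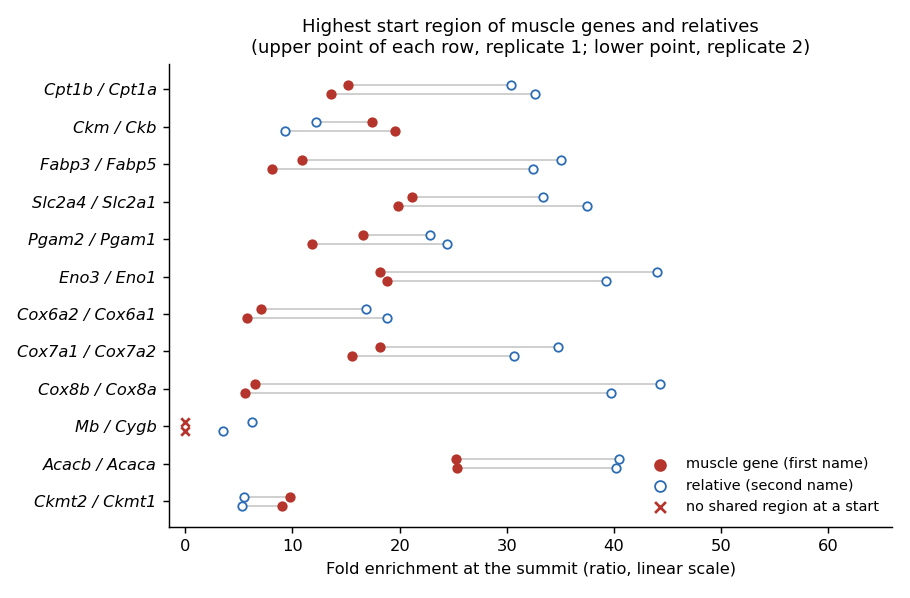
Fold enrichment (x axis, linear ratio) of the highest start region of 12 muscle genes (filled circles) and their relatives (open circles), by replicate. Of the 11 pairs with both values, the relative lies to the right in 9 and the muscle gene in 2, *Ckm* and *Ckmt2*, and the crosses at 0 mark *Mb*, which has no start region and hence no value.

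Almost every gene of the surrounding pathways was open at 1 or more of its annotated starts, although not at all of them. Such a region was found at 19 of 19 partner regulators (median of the mean fold enrichment 25.8), 19 of 19 genes of fatty acid uptake and storage (26.6), 21 of 21 of the carnitine shuttle and β-oxidation (31.6), 12 of 13 of phosphotransfer and oxygen use (12.6), 24 of 25 of glucose and lactate use (33.6) and 16 of 16 contractile genes (17.3). The share is above the 67.6% of all genes in each list. Genes with a CpG-rich start, a class open in 95.6% of cases, were 18 of the 19 partner regulators, 10 of the 19 of uptake and storage, 15 of the 21 of β-oxidation, 4 of the 13 of phosphotransfer and oxygen use, 17 of the 25 of glucose and lactate use and 2 of the 16 contractile genes. Of the genes without one, a class open in 38.1% of cases, 1 of 1, 9 of 9, 6 of 6, 8 of 9, 8 of 8 and 14 of 14 were open in the same order of lists. These counts include *Fabp4*, *Tnnc1* and *Eno3*. The replicate 1 summits of their highest start regions lay at 1255, -1612 and -2646 bp from the nearest start. The *Tnnc1* region also lies within 1 kb of a start of *Nisch*.

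Among the partner regulators the highest were *Tfb1m* (44.6 and 45.5), *Gabpa* (44.8 and 42.7, shared with *Atp5j*) and *Nrip1* (42.1 and 41.0), and the lowest was *Perm1*, a muscle regulator downstream of the coactivators, with 8.42 and 4.78. In β-oxidation the highest were *Acadm*, the medium-chain dehydrogenase (49.7 and 48.3), *Etfdh* (50.3 and 47.5) and *Slc22a5*, the carnitine transporter (45.1 and 43.2). The *Etfdh* region was shared with the gene model *4930579G24Rik*. In uptake and storage the highest were *Acsl3* (54.6 and 46.3, shared with *Utp14b*), *Acsl1*, the main acyl-CoA synthetase of heart (47.5 and 44.8), and *Dgat1* (44.6 and 42.5). Of phosphotransfer and oxygen use the highest were *Gamt* (36.9 and 35.2, shared with *Dazap1*), *Slc25a4* (31.8 and 25.9) and *Ucp2* (23.4 and 29.9), and *Ucp3* had no start region. For glucose and lactate the highest were *Mpc2* (54.6 and 53.0, shared with *Dcaf6*), *Hk2* (45.1 and 40.7) and *Eno1* (44.0 and 39.2), and *Pfkl* had none at its 8 starts, 4 of them CpG rich. The lists cannot tell whether such a start is closed or yielded no usable reads. Of the contractile genes the highest were *Myl4* (33.7 and 36.7, shared with *Cdc27*), *Tpm1* (35.0 and 34.9) and *Tnni1* (29.1 and 23.6).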

How the data were processed

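ATAC-seq peak lists of 2 replicates of E11.5 mouse heart were used. Per the paper's methods and the labels, the authors trimmed single-end reads with Trim Galore 0.6.6, mapped them to GRCm38/mm10 with Bowtie2 2.4.2, filtered out duplicates and poorly mapped reads with SAMtools 1.12, so that repeated sequence is underrepresented, and ran MACS2 on each replicate without a local background. The deposited fold enrichment is a ratio at the summit, the −log10 p and −log10 q deposited beside it belong to the same summit, and the authors' score is a scaled −log10 q. Read depth is not given by peak lists, so no counting interval was computed.

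Shared regions are the stretches where peaks of both replicates overlap (at least 1 bp), merged where they touch, with the highest overlapping peak of each replicate giving the value. Starts and bodies came from GENCODE M21, and sequences from the GRCm38 assembly of RefSeq. Named were all 10 genes with each start, their highest start region and up to 3 others, and each pair. Of each list, the genes without a start region and the 3 highest were named. *Perm1*, *Fabp4*, *Tnnc1*, neighbouring genes and genes that share a region were named besides, after their values were seen. The genes, lists, pairs and motifs were chosen with earlier results of these data known. With 1 group and 2 replicates, no test was made, and both values are given. Alternatives were stricter p- and q-values, a reciprocal overlap, each replicate alone, other windows and flanks, summits inside the window and protein-coding transcripts only. Overlap code was tested on simulated data. Python 3.11.15, NumPy 2.4.6, pandas 2.3.3 and Matplotlib 3.10.9 were used.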

Additional observations from a re-analysis of the deposited data

How the results depend on the processing

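The number of genes with a start region stayed at 9 under 8 of 9 alternatives and was 10 with 2 kb on each side of a start, where *Mb* gained 1 start. With protein-coding transcripts only, 23 of 30 starts were open, against 32 of 42, and under the other alternatives the number ranged from 29 to 33, and the number of open muscle genes of the pairs from 9, with a reciprocal overlap of 50%, to 12. Shared regions in the windows fell from 148 to 74 with a q-value limit of 1e-10, since fewer peaks pass, and ranged from 99 to 213 under the other alternatives. With that limit *Esrrg* kept a region at 2 of its 5 starts. For replicate 1 alone the window of *Esrrb* held 18 peaks instead of 8 shared regions. Of 160 alternatives of single-gene results, 24 changed a count by more than 1.5 times, 18 of them lower and 6 higher. The background of genes with a start region ranged from 62.6% to 69.3%. No paired analysis was possible because the samples form 1 group. A peak list without reads cannot show open chromatin below the peak threshold, so a start without a region is one where none was called in both replicates.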

Other observations

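Peaks called in 1 replicate only were weak in the windows of the 10 genes. Replicate 1 had 41 such peaks, with fold enrichments of 3.26 to 6.25, and replicate 2 had 15, with 3.02 to 5.78. They were unevenly spread, with 14 of replicate 1 at *Esrrg* and 10 at *Esrrb*, where replicate 2 had 3 and 0.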
